A study of Homo sapiens with 8 samples.

Results

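The genes described are 36 genes of the hypoxia response and of glycolysis. They comprise 20 targets of the hypoxia-inducible factors (HIF) and 16 genes of glucose uptake and glycolysis. The 36 were chosen by gene name, with earlier results of these data known, and were all found among the 60106 genes of the deposited counts. Shares of members called therefore describe this list and are no independent evidence. RNA was measured by total RNA sequencing of pneumospheres, floating spheres grown without serum from established non-small cell lung cancer lines. The 8 libraries came from 4 lines, H23, EBC1, H820 and H1975, with 1 PD-L1s library and 1 untreated library each. PD-L1s is a synthetic PD-L1, a ligand of the immune checkpoint, made in soluble form. Treated spheres were exposed to it in serum-free medium for 15 min, at a dose of 25 µg/ml. The labels call 3 of the lines adenocarcinoma (H23, H820, H1975) and EBC1 a squamous cell carcinoma line. With 1 line labelled squamous, a difference between lines is one between 4 cultures and not between tumour types. The labels do not say that the libraries of a line came from separate cultures, so p-values here measure only the spread between these samples, which may be technical.

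HIF is made of an oxygen-labile alpha subunit, HIF1A or EPAS1, and the stable partner ARNT. When oxygen is plentiful, the prolyl hydroxylases of the EGLN family mark the alpha subunit for degradation through VHL. When oxygen is short, HIF accumulates and raises genes for glucose uptake, glycolysis, blood vessel growth, matrix remodelling and mitophagy. Glycolysis turns glucose into pyruvate, and lactate dehydrogenase turns pyruvate into lactate, a route that many lung cancers use heavily even in oxygen.

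The letters of the hypoxia response element core were searched in RefSeq promoter windows of build GRCh38.p14, each running from 250 bases before to 50 bases after a transcription start. The motifs were ACGTG and GCGTG on both strands, so the capitals below mark these letters or their reverse complements, CACGT and CACGC. Overlapping matches were counted as 1 site, so the palindrome CACGTG, which is also the E-box core, is 1 site. Windows were found for 32 of the 36 members, more than 1 for a gene with several annotated starts. Those of NDRG1, VEGFA, BNIP3L and SLC2A3 were not used. The first 5 windows belong to the HIF targets that differed most between the libraries of H820, and HK2 is the glycolysis gene that did. EGLN3 is shown because it differed most between lines among the HIF targets.
ANKRD37, chr4:185396591-185396890, + strand: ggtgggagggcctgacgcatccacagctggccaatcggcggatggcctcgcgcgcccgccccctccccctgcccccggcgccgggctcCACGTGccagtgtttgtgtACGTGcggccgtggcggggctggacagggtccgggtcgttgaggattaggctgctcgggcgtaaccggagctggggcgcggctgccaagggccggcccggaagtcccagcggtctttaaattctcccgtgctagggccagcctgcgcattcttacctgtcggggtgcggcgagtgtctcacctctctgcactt
PPP1R3C, chr10:91633022-91633321, - strand: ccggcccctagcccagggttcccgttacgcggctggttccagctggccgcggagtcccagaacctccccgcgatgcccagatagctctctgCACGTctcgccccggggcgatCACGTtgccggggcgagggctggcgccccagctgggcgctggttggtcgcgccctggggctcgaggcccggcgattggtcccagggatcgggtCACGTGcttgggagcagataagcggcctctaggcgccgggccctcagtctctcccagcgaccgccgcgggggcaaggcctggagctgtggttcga
BHLHE40, chr3:4979187-4979486, + strand: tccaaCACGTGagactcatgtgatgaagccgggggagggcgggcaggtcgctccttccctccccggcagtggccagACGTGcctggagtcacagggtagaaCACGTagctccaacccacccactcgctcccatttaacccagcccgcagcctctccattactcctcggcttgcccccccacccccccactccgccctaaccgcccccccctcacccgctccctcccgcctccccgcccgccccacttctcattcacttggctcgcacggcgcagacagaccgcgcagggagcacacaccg
ADM, chr11:10304823-10305122, + strand: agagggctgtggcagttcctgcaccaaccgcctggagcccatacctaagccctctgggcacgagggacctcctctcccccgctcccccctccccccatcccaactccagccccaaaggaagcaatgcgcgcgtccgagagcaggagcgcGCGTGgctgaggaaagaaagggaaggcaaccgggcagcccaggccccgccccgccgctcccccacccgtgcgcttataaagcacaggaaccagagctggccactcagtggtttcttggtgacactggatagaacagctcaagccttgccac
DDIT4, chr10:72273674-72273973, + strand: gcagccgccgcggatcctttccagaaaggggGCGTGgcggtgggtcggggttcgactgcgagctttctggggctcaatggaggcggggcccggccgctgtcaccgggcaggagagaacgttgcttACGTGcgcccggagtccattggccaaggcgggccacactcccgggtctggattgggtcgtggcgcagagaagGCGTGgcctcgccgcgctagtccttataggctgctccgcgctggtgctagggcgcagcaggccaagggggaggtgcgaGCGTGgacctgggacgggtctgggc
HK2, chr2:74834920-74835219, + strand: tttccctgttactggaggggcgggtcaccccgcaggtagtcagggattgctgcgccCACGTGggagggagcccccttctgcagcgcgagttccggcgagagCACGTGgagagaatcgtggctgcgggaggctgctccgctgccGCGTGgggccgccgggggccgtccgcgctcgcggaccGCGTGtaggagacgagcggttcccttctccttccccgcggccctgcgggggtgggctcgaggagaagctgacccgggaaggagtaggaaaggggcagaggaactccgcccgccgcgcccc
EGLN3, chr14:33951025-33951324, - strand: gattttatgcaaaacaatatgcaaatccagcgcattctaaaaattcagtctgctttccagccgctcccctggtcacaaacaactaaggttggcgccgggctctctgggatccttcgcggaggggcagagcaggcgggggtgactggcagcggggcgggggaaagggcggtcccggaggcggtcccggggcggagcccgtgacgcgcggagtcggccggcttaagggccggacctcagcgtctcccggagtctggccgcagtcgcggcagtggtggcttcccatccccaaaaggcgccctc

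The window of ANKRD37 held 2 sites, that of PPP1R3C 3, that of BHLHE40 3, that of ADM 1, that of DDIT4 4 and that of HK2 4. The HK2 window shown was picked as the one with more sites, and the other HK2 window held 3. The EGLN3 window held 0. Of 22 windows of HIF targets, 19 (86.4%) held a site and 9 (40.9%) held more than 1. Of 29 windows of glycolysis genes, 20 (69%) held a site and 8 (27.6%) held more than 1. Windows of the same gene can overlap and share sites, as for LOX and KDM3A, so these are counts of windows and not of genes. Among all 35116 windows of this length, 48.4% held a site and 20% held more than 1. The members' windows were richer in G and C, with a median of 68% in both sets against 58.7% over all windows, and the letters searched are themselves rich in CG. A match is a description of these letters and says nothing of binding.

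Total counts ran from 15563010 to 27524854 in the PD-L1s libraries and from 5559870 to 23751862 in the untreated ones. In EBC1 the PD-L1s library was 4.67 times as deep as the untreated one. The factor was 4.28 for H820, 0.766 for H23 and 0.936 for H1975. Each library correlated best with its partner of the same line (Pearson's r of log CPM across genes 0.984 to 0.997), and the highest value with another line was 0.896. These are correlations across genes, which are not independent replicates. Epithelial markers summed to 152 and 157 CPM in the PD-L1s and untreated libraries of H23, against 2162 to 5256 CPM in the other 6 libraries. Squamous markers summed to 6.32 and 6.72 CPM in the PD-L1s and untreated libraries of EBC1, the line labelled squamous, with 3 and 6 of the 8 markers at 0. They summed to 98.9 and 93.2 CPM in H1975, which is labelled adenocarcinoma. EBC1 is therefore called by its name only.

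All 36 members passed the filter on low counts, as did 24185 genes in all. Levels are given as CPM, counts relative to the library total scaled by TMM, and as FPKM, the same per kilobase of exon, where genes are compared. The 16 glycolysis genes took 2.71% and 2.36% of all counts in the PD-L1s and untreated libraries of EBC1. They took 1.63% and 1.67% in H1975, 1.02% and 1.03% in H23, and 0.919% and 0.648% in H820. The 20 HIF targets took 0.193% and 0.196% in H23, against 0.519% to 0.990% in the other 6 libraries. H23 thus had the lowest share for HIF targets in both of its libraries, and EBC1 the highest share for glycolysis genes. In bulk RNA, fewer cells with a transcript and less of it per cell cannot be told apart.

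Per kilobase, GAPDH and ALDOA had the highest medians of the members, followed by the HIF target NDRG1. In H820, NDRG1 averaged 1175 FPKM and GAPDH 739.8 FPKM over both libraries. GAPDH, which oxidises glyceraldehyde phosphate, ranged from 463 to 5011 FPKM over the 8 libraries with a median of 1485. The aldolase ALDOA, with a median of 799 FPKM, and the enolase ENO1, with a median of 684 FPKM, came next among the glycolysis genes. Reads of ALDOA are uncertain, since 96.1% as many were also counted for an overlapping gene on the same strand. Among HIF targets the stress-response gene NDRG1 was highest, with a median of 727 FPKM and a range of 11.6 to 1589 FPKM. VEGFA, the main growth factor for blood vessels, followed with a median of 222.5 FPKM. The next were the mTORC1 inhibitor DDIT4 (171 FPKM), P4HA1, a subunit of the collagen prolyl hydroxylase (164 FPKM), and BHLHE40, a transcriptional repressor (162 FPKM), as medians. The lowest median was that of the cell surface carbonic anhydrase CA9, at 2.55 FPKM.

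**Figure D1:**
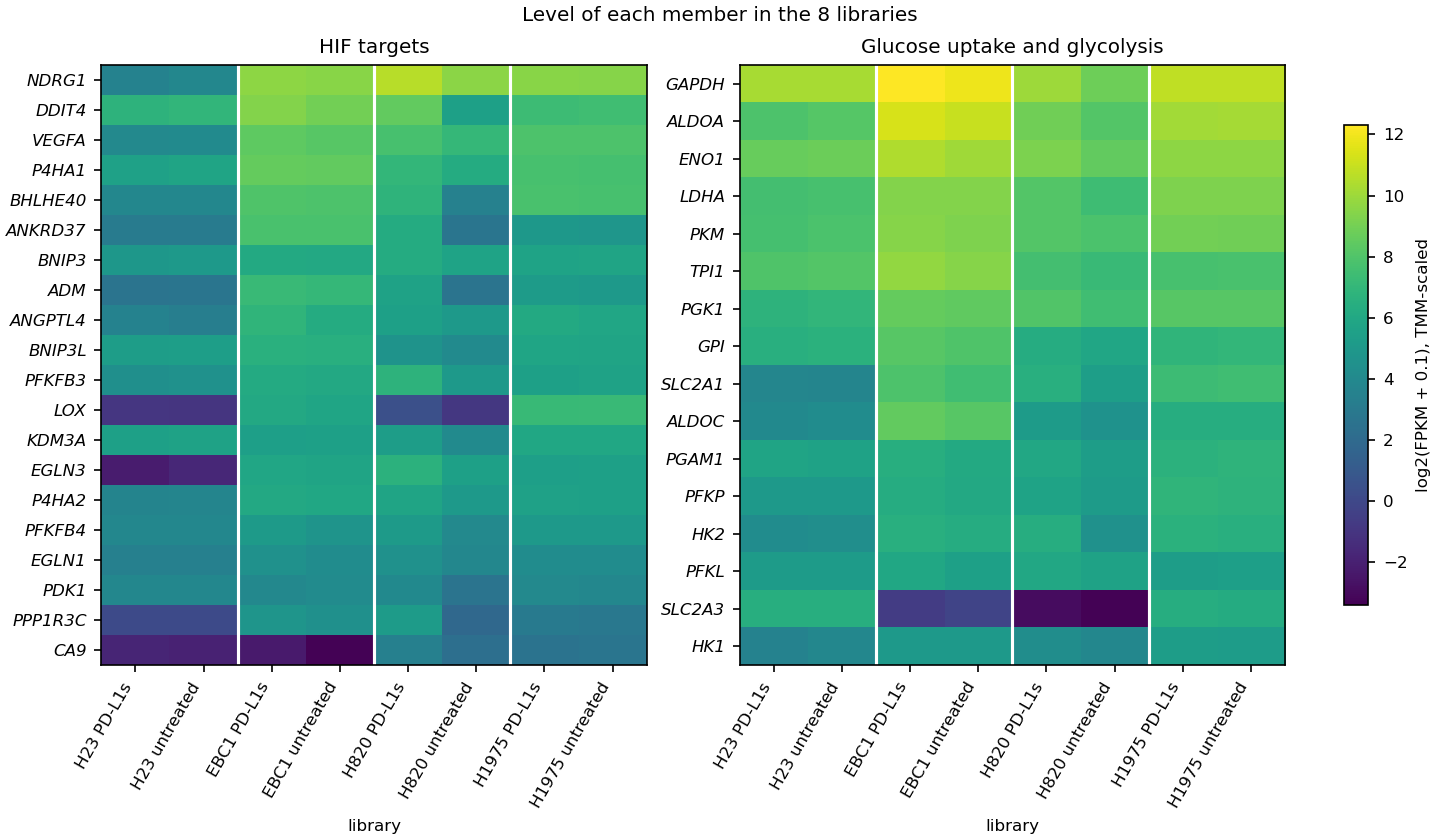
Level of each of the 36 members in the 8 libraries as log2(FPKM + 0.1) by colour, from dark for low to yellow for high, with HIF targets left, glycolysis genes right and the PD-L1s library of each line beside its untreated one. The 2 columns of H23 are darkest for most HIF targets (EGLN3 at 0.1135 and 0.2225 FPKM), EBC1 is brightest for most glycolysis genes, and in H820 the untreated column is darker than the PD-L1s one.

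Line differences were tested by setting each line against the mean of the log2 levels of the other 3, with 2 libraries a line. H23 was called lower for 17 of 20 HIF targets and higher for 0, with a median log2 difference of -2.26. The background was 27.4% of all genes called lower, 34.4% called higher and 61.8% called in all, with a median difference of 0.10. In the stricter reading, both H23 libraries lay below the other 6 for 12 of the 20, against 16.8% of all genes. H23 was not called for 3 members. Those were BNIP3L, a mitophagy receptor, KDM3A, a histone demethylase, and PDK1, the kinase that shuts off pyruvate dehydrogenase, with log2 differences of -0.24, 0.16 and 0.05.

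EGLN3, one of the oxygen-sensing prolyl hydroxylases, set H23 apart furthest. It had 0.553 and 1.08 CPM in the PD-L1s and untreated libraries of H23 (11 and 27 counts), against 284 and 261 CPM in EBC1, 507 and 227 CPM in H820, and 215 and 226 CPM in H1975. The H23 libraries lay far below the other 6, which themselves spanned 2.23-fold at most within a line. The log2 difference was -8.34 ± 0.36 (SE), with an edgeR adjusted p of 4.86e-13. NDRG1 stood at 43.5 and 54.0 CPM in H23, against 2621 to 5973 CPM in the other 6 libraries, a log2 difference of -6.02 ± 0.31 (edgeR adjusted p = 7.59e-12). VEGFA had 59.1 and 63.7 CPM in H23, against 494 to 1285 CPM elsewhere, with no overlap and a log2 difference of -3.84 ± 0.21 (edgeR adjusted p = 1.58e-11).

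LOX, which crosslinks collagen, split the lines into pairs. H1975 had 742 and 767 CPM and EBC1 343 and 289 CPM in the PD-L1s and untreated libraries. H820 had 6.60 and 2.37 CPM and H23 2.21 and 2.13 CPM. The H23 and H820 libraries rest on 14 to 142 counts. The log2 difference was 5.66 ± 0.17 for H1975 (edgeR adjusted p = 6.16e-15), 3.97 ± 0.16 for EBC1 (8.68e-13), -4.03 ± 0.24 for H820 (1.13e-10) and -5.60 ± 0.26 for H23 (1.57e-12), the p-values again being adjusted values of edgeR.

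CA9 split them another way. It had 17.4 and 7.96 CPM in the PD-L1s and untreated libraries of H820 and 9.53 and 10.4 CPM in H1975. H23 had 0.302 and 0.281 CPM (6 and 7 counts), and EBC1 had 4 counts and 0 counts, where 3 counts correspond to 0.134 and 0.576 CPM. CA9 is thus at or near the counting floor in EBC1, the line with the highest levels of most other HIF targets. It was the only HIF target called lower in EBC1.

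EBC1 was called higher for 17 of 20 HIF targets and lower for 1, with a median log2 difference of 1.73. The background was 28.1% of all genes higher, 26.4% lower and 54.4% in all. Both EBC1 libraries lay above the other 6 for 9 members, against 16% of all genes. These were ANKRD37, ADM, BHLHE40, ANGPTL4, P4HA1, P4HA2, VEGFA, BNIP3L and DDIT4. ANKRD37, an ankyrin repeat protein known as a sensitive HIF target, had 256 and 252 CPM in the PD-L1s and untreated libraries of EBC1, against 7.45 to 86.5 CPM in the other 6. Its log2 difference was 3.38 ± 0.33 (edgeR adjusted p = 9.16e-08). ADM, the vasodilator peptide adrenomedullin, had 413 and 359 CPM in EBC1, against 16.4 to 137 CPM elsewhere, a log2 difference of 2.998 ± 0.31 (edgeR adjusted p = 1.48e-07). The EBC1 levels of both genes lay clear of all the rest.

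H1975 was called higher for 12 of 20 HIF targets and lower for 0, with a median log2 difference of 0.56. The background was 31% of all genes higher, 22.6% lower and 53.6% in all. Its libraries lay above the other 6 only for LOX and KDM3A (2 of 20, against 16.8% of all genes). H1975 had 313 and 313 CPM of KDM3A, against 88.9 to 251 CPM in the others. The mean that H1975 is set against includes the low levels of H23. EGLN3, for example, was called higher in H1975 (log2 difference 2.35) at 215 and 226 CPM. Neither value lay above any of the 4 libraries of EBC1 and H820, of which untreated H820 was nearly equal at 227 CPM.

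H820 was called higher for 7 of 20 HIF targets and lower for 4, with a median log2 difference of -0.01, against 30.6% of all genes higher, 22.9% lower and 53.5% in all. The 7 were CA9, EGLN3, NDRG1, PPP1R3C, PFKFB3, VEGFA and BNIP3, and the 4 were LOX, BNIP3L, KDM3A and P4HA1. These differences depend on which H820 library is used, and leaving out 1 leaves a single H820 library, so only sizes are given. PPP1R3C, which recruits protein phosphatase to glycogen, turned from a log2 difference of 1.60 with both libraries to -0.59 without the PD-L1s library. PFKFB3, a bifunctional enzyme that makes an activator of phosphofructokinase, turned from 0.67 to -0.35. The mean of logs and the mean of CPM can also part, as for VEGFA, whose log2 difference of 0.63 was called while H820 averaged 639 CPM, against 726 CPM in the other 3 lines.

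**Figure D2:**
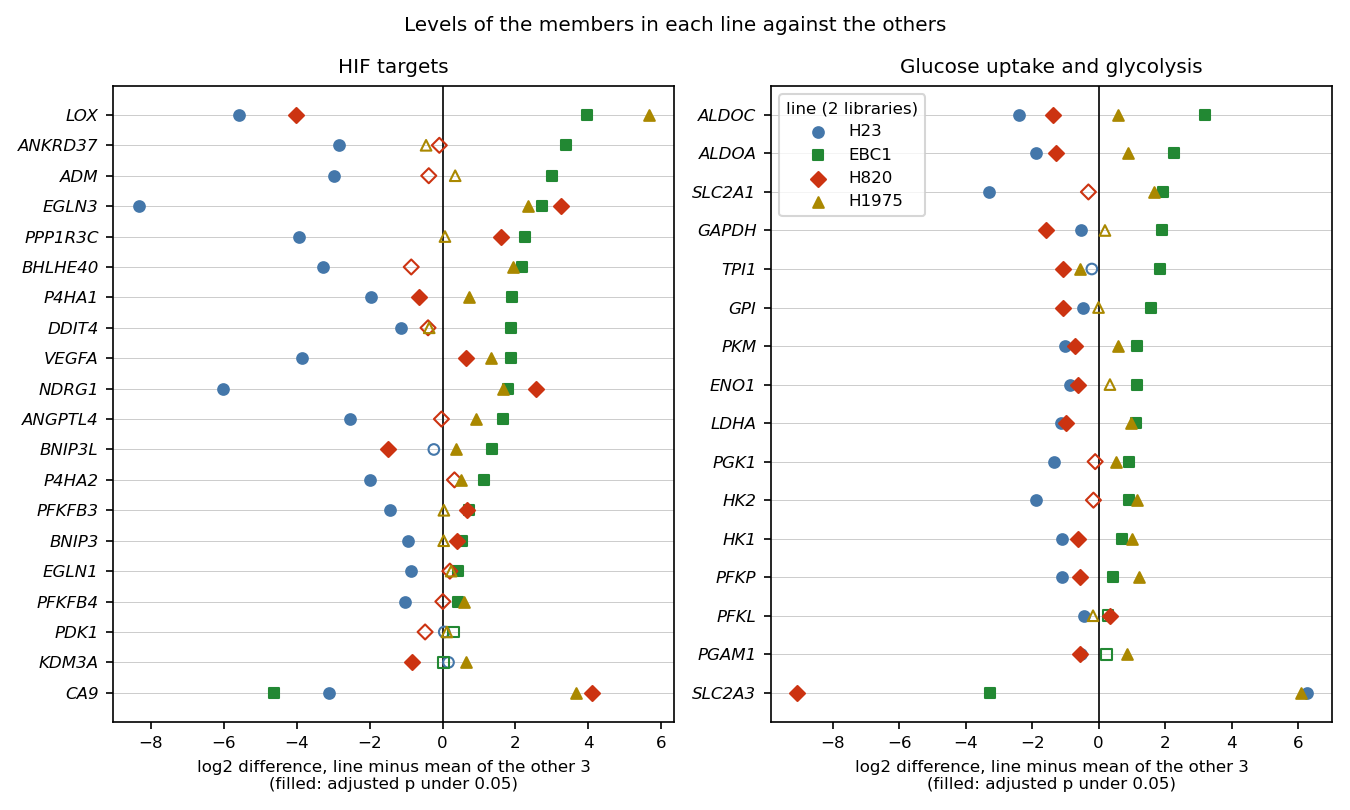
Log2 difference of each member between a line and the mean of the other 3, 1 marker per line, filled where the edgeR adjusted p is under 0.05. H23 (blue circles) lies left of 0 for 18 of 20 HIF targets and 15 of 16 glycolysis genes, EBC1 (green squares) lies right of 0 for 19 and 15, and SLC2A3 and CA9 depart from the order of the rest.

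By median log2 difference, EBC1 was also highest and H23 lowest for the glycolysis genes, while by share of counts H820 was lowest. EBC1 was called higher for 13 of 16 and lower for 1, with a median log2 difference of 1.14, and both its libraries lay above the other 6 for 9. H23 was called lower for 14 and higher for 1, with a median of -1.05, and lay below the others for 7. H820 was called lower for 12 and higher for 1, with a median of -0.67, and lay below the others for 4. H1975 was called higher for 11 and lower for 1, with a median of 0.72, and lay above the others for 4. Of all genes, 28.1% were called higher in EBC1, 27.4% lower in H23, 22.9% lower in H820 and 31% higher in H1975. Both libraries lay above the other 6 for 16% of all genes in EBC1 and 16.8% in H1975, and below for 16.8% in H23 and 12.7% in H820. Calls among glycolysis genes thus went mostly upwards in EBC1 and H1975 and mostly downwards in H23 and H820. The single calls against the rest were SLC2A3 in H23 and EBC1, PFKL in H820 and TPI1 in H1975.

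GAPDH had 11144 and 8480.2 CPM in the PD-L1s and untreated libraries of EBC1, 3882 and 3963 CPM in H1975, 2722 and 2696 CPM in H23, and 2261 and 1030 CPM in H820. EBC1 lay above and H820 below all others, with log2 differences of 1.92 ± 0.20 (edgeR adjusted p = 1.76e-07) and -1.58 ± 0.24 (edgeR adjusted p = 2.02e-05). H23 differed by -0.53 ± 0.22 (edgeR adjusted p = 0.0485), a call that was lost under several other settings. The triose isomerase TPI1 had 1865 and 1508 CPM in EBC1, against 322 to 602 CPM in the other 6 libraries. ALDOC, the aldolase typical of brain, had 743 and 600 CPM in EBC1, against 33.9 to 172 CPM elsewhere, a log2 difference of 3.20 ± 0.14 (edgeR adjusted p = 1.24e-12), the largest called rise among glycolysis genes in EBC1. The smallest spread over libraries was that of the phosphofructokinase subunit PFKL, at 1.76-fold in FPKM.

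Glucose enters through SLC2A1 and SLC2A3, and the lines differed in which transporter they carried. SLC2A3 had 335 and 343 CPM in the PD-L1s and untreated libraries of H23 and 324 and 301 CPM in H1975. EBC1 had 2.15 and 3.07 CPM (48 and 16 counts), and H820 had 3 counts and 0 counts, at the counting floor. SLC2A1 had 54.2 and 52.4 CPM in H23, against 951 and 700.5 CPM in EBC1, 356 and 169 CPM in H820, and 668 and 729 CPM in H1975. Per length, SLC2A1 made up 13.7% and 13.0% of the pair's FPKM in H23, 67.0% and 70.4% in H1975, 99.8% and 99.6% in EBC1, and 99.96% and 100% in H820. SLC2A3 was thus the only glycolysis gene called higher in H23 (log2 difference 6.26 ± 0.17, edgeR adjusted p = 1.27e-15) and the only one called lower in EBC1 (-3.26 ± 0.52, edgeR adjusted p = 3e-05).

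Other enzymes with several forms were compared per length in the same way. HK2, the hexokinase that many tumours induce, held 61.0% and 59% of hexokinase FPKM in the PD-L1s and untreated libraries of H23. It held 72.6% and 70.7% in EBC1, 71.3% and 70.8% in H1975, and 81.2% and 61.6% in H820. HK1 held the rest. LDHA, the subunit of lactate dehydrogenase that favours lactate, held 90.9% and 90.3% of the sum with LDHB in H1975 and 73.4% and 73.9% in EBC1. In H820 it held 54.2% and 51.8%, and in H23 49.0% and 47.7%. PFKP, the platelet form of phosphofructokinase, held 69.3% and 66.5% of the sum with PFKL and PFKM in H1975, against 37.5% to 54.7% in the other 6 libraries. Within a line the shares of HK2, LDHA and PFKP differed by at most 3.46 points, except that of HK2 in H820, which differed by 19.6 points.

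Among the regulators of the pathway, HIF1A had 899 and 980 CPM in the PD-L1s and untreated libraries of EBC1, 455 and 298 CPM in H820, 226 and 235 CPM in H1975, and 92.9 and 91.4 CPM in H23. The lines did not overlap, and the log2 difference was 2.24 ± 0.14 for EBC1 (edgeR adjusted p = 2.25e-10) and -2.23 ± 0.18 for H23 (edgeR adjusted p = 3.72e-09). EPAS1, which encodes HIF-2 alpha, had 0.754 and 1.45 CPM in H23 (15 and 36 counts), against 74.9 to 281 CPM in the other 6 libraries, a log2 difference of -7.32 ± 0.27 (edgeR adjusted p = 5.77e-14). ARNT ran the other way, with 133 and 133 CPM in H23 and 46.4 and 43.0 CPM in EBC1, and was called higher in H23 (log2 difference 0.94) and H1975 (0.64) and lower in EBC1 (-1.15) and H820 (-0.43). The factor-inhibiting hydroxylase HIF1AN was not called in any line, with log2 differences from -0.15 to 0.17, and VHL was called only in EBC1 (0.51) and H1975 (-0.33). EGLN2, the remaining HIF prolyl hydroxylase, was called lower in H1975 (-1.59) and higher in EBC1 (1.19).

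A wider list of 38 other HIF targets, of which 37 were tested, had 4 called higher and 31 lower in H23, 23 higher and 3 lower in EBC1, 25 higher and 4 lower in H1975, and 13 each way in H820. The shares of all genes called higher and lower were 34.4% and 27.4% in H23, 28.1% and 26.4% in EBC1, 31% and 22.6% in H1975, and 30.6% and 22.9% in H820. STC1, a secreted glycoprotein, was among the exceptions in H23, at 593 and 574 CPM there, against 41.2 and 39.6 CPM in EBC1. IGFBP3, a binding protein of insulin-like growth factors, was the most significant of those lower in H23 (log2 difference -8.44, edgeR adjusted p = 4.88e-14). The neuronal enolase ENO2 had 1098 and 906 CPM in EBC1, against 47.2 to 262 CPM in the other 6 libraries, and the lactate exporter SLC16A3 had 95.4 and 89.0 CPM in H23, against 182 to 384 CPM in the others. PKLR was below the filter on low counts.

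Across the 4 pairs, PD-L1s against untreated, 0 of 36 members passed the test. The background was 0.0372% of all genes, or 9 (0.0289% higher and 0.00827% lower), with 873 genes at an unadjusted p under 0.05. DESeq2 and limma-voom also called 0 members. Without the filter on low counts, edgeR called 5 HIF targets higher, ANKRD37, PPP1R3C, ADM, BHLHE40 and DDIT4, with 98 genes called in all. An unadjusted p under 0.05 was reached by 4 HIF targets, ANGPTL4, PFKFB4, PPP1R3C and ADM, and by 2 glycolysis genes, SLC2A1 and HK2, each with an edgeR adjusted p of 1. The fitted log2 change was above 0 for 20 of 20 HIF targets, with a median of 0.31, and for 15 of 16 glycolysis genes, with a median of 0.18, against a median of 0.04 over all genes. The separate pairs behind these medians differed in size and direction. The log2 ratio was above 0 for 20 HIF targets and 16 glycolysis genes in H820, and for 18 and 15 in EBC1. It was above 0 for 12 and 7 in H1975 and for 6 and 4 in H23. Of all genes with at least 50 counts it was above 0 for 64.1%, 69.7%, 48.5% and 46.1% in the same order.

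Within a line there is 1 library of each condition, so the ratios that follow are descriptions without a test of replicates. The median log2 ratio of PD-L1s over untreated for HIF targets was 1.16 in H820, 0.13 in EBC1, 0.05 in H1975 and -0.05 in H23. For glycolysis genes it was 0.61 in H820, 0.26 in EBC1, -0.03 in H1975 and -0.12 in H23. The medians over all genes with at least 50 counts were 0.14, 0.13, -0.01 and -0.01 in the same order of lines. Members past 2-fold higher were 13 of 20 and 3 of 16 in H820, against a background of 4.23%. They were 0 of 36 in EBC1 (background 1.33%), in H23 (0.136%) and in H1975 (0.113%). Past 2-fold lower there were 0 of 36 in each line, where 0.873% of all genes did so in H820 and 0.115% in EBC1, and 0.0906% in H23 and 0.0266% in H1975.

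**Figure D3:**
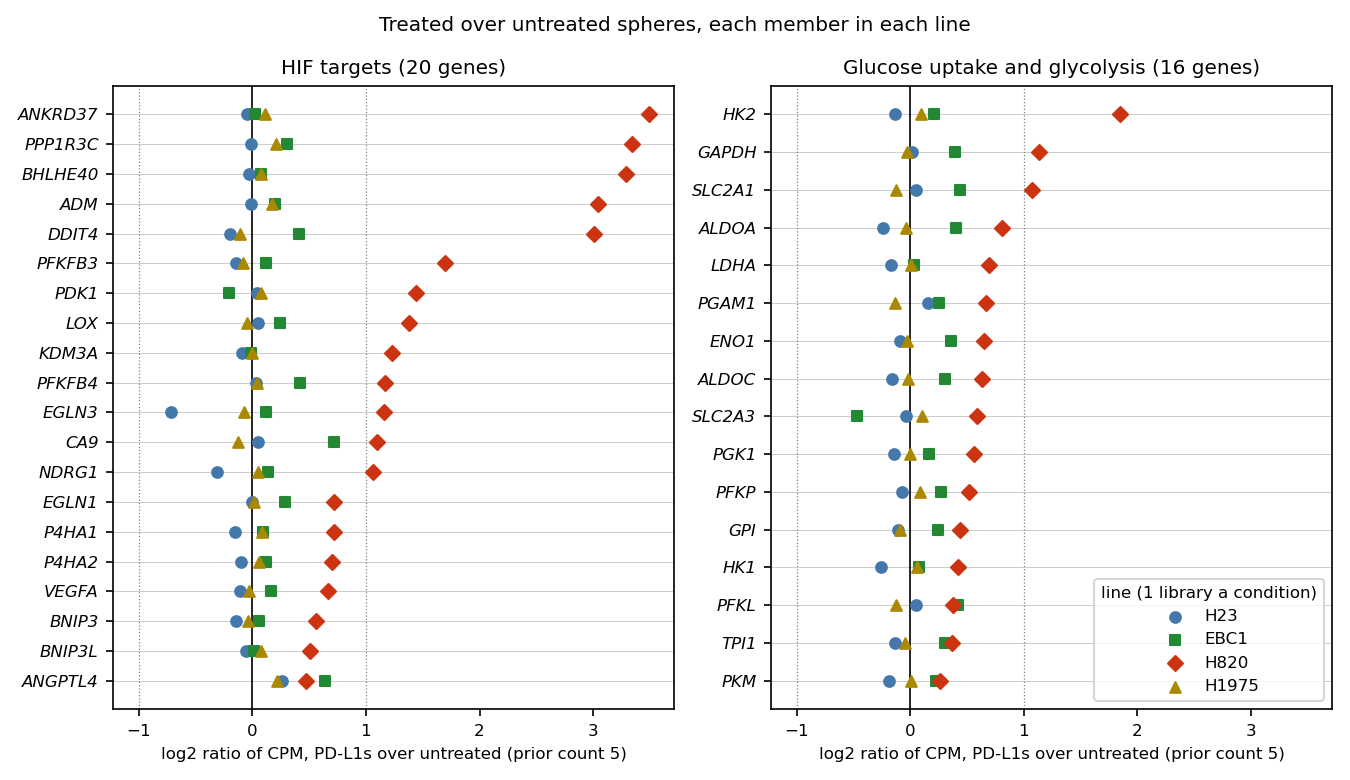
Log2 ratio of PD-L1s over untreated CPM (prior count 5) for each member in each line, 1 library of each condition, with dotted lines at 2-fold. The H820 points (red diamonds) reach 3.49 among HIF targets and 1.85 among glycolysis genes, and those of the other 3 lines lie between -0.71 and 0.72. Both ends rest on few counts, EGLN3 in H23 (11 with PD-L1s and 27 untreated) and CA9 in EBC1 (4 and 0).

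In the other 3 lines single members stood out little. ANGPTL4, a secreted inhibitor of lipoprotein lipase, had 220 and 141 CPM in the PD-L1s and untreated libraries of EBC1, 87.1 and 62.7 CPM in H820, 130.3 and 112 CPM in H1975, and 22.0 and 18.3 CPM in H23. It was higher with PD-L1s in 4 of 4 lines, by 0.22 to 0.64 on the log2 scale. PFKFB4, the partner enzyme of PFKFB3, had log2 ratios of 0.42 in EBC1, 1.17 in H820, 0.04 in H1975 and 0.03 in H23. EGLN3 in H23 had the lowest ratio of all, -0.71, on 11 and 27 counts.

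The response of H820, meaning its log2 change minus that shared by the other 3 lines, was tested in a fit with an interaction term. H820 gives a single pair, so the spread comes from the other lines, and an effect of PD-L1s cannot be told apart from any other difference between those 2 libraries. Of the 20 HIF targets, 14 were called higher and 0 lower, with a median difference of 1.20. Of the 16 glycolysis genes, 5 were called higher and 0 lower, with a median of 0.57. The background was 2.63% of all genes called higher, 0.368% lower and 2.99% in all, with a median of 0.06. The same test called 0 members for EBC1, with a background of 0.0124% of all genes (0.00827% higher, 0.00413% lower). It called 0 for H23, where 0.0207% were called (0.00413% higher, 0.0165% lower), and 0 for H1975, where 0.0165% were called (0.00827% each way), and DESeq2 and limma-voom called 0 there too. An unadjusted p under 0.05 was reached by 0 members for EBC1, by 6 HIF targets and 1 glycolysis gene for H23, and by 1 HIF target for H1975. Each of these had a log2 difference below 0, and the lines that H23 and H1975 are set against include H820. The shares of all genes at such a p are not given here, nor those called in the fits below that leave out a pair. The H820 count was 11 without the H1975 pair, 14 without the H23 pair and 31 without the EBC1 pair.

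ANKRD37 had 86.5 CPM in the PD-L1s library of H820 and 7.45 CPM in its untreated library, from 1862 and 44 counts. The other pairs differed little, at 256 and 252 CPM in EBC1, 36.1 and 33.4 CPM in H1975, and 9.76 and 10.1 CPM in H23. The ratio in H820 was 11.6-fold, with a 95% exact interval of 8.61 to 16.03 that covers counting error only. It ranked 3 of 14883 genes in that pair. The difference in response was 3.499 ± 0.25 (SE) on the log2 scale (edgeR adjusted p = 6.47e-11). The untreated H820 library was the lowest of all 8 for this gene, and the PD-L1s library lay within the range of the others.

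BHLHE40 had 388 CPM in the PD-L1s library of H820 and 39.5 CPM in the untreated one, against 881 and 834 CPM in EBC1, 774 and 733 CPM in H1975, and 49.4 and 50.4 CPM in H23. Its response differed by 3.25 ± 0.20 (edgeR adjusted p = 7.12e-12), the smallest p of all members. PPP1R3C had 95.1 and 9.15 CPM in H820, against 70.5 and 57.1 CPM in EBC1, 21.3 and 18.4 CPM in H1975, and 2.46 and 2.49 CPM in H23. Here the PD-L1s library of H820 was the highest of all 8, and the response differed by 3.16 ± 0.26 (edgeR adjusted p = 1.32e-09).

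DDIT4 had 635 and 78.6 CPM in the PD-L1s and untreated libraries of H820, against 1148 and 864 CPM in EBC1, 287 and 310.0 CPM in H1975, and 185 and 213 CPM in H23. Its response differed by 2.98 ± 0.22 (edgeR adjusted p = 1.42e-10). ADM had 137 and 16.4 CPM in H820, against 413 and 359 CPM in EBC1, 103 and 91.1 CPM in H1975, and 17.0 and 17.1 CPM in H23, with a difference of 2.93 ± 0.22 (edgeR adjusted p = 1.42e-10). For both genes the untreated H820 library was the lowest of the 8. The counting intervals of these 4 ratios lay between 6.83-fold and 13.9-fold.

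The remaining 9 HIF targets called in H820 differed less. The enzymes PFKFB3 and PDK1 had differences of 1.73 and 1.47 on the log2 scale, with edgeR adjusted p of 2.69e-07 and 5.54e-06. LOX (1.38), KDM3A (1.27), EGLN3 (1.19), NDRG1 (1.09) and PFKFB4 (1.01) followed, and the collagen prolyl hydroxylase subunits P4HA1 (0.71) and P4HA2 (0.67) had the smallest differences of the 14. LOX rested on 142 and 14 counts. The 6 that did not pass were CA9 (1.20, edgeR adjusted p = 0.1), VEGFA (0.65, 0.0531), EGLN1 (0.62, 0.0733), the mitophagy receptors BNIP3 (0.61, 0.0675) and BNIP3L (0.50, 0.179), and ANGPTL4 (0.10, 0.913), each with its log2 difference and its edgeR adjusted p. P4HA1, P4HA2 and LOX lost the call under several other settings, and NDRG1 without the H1975 pair.

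**Figure D4:**
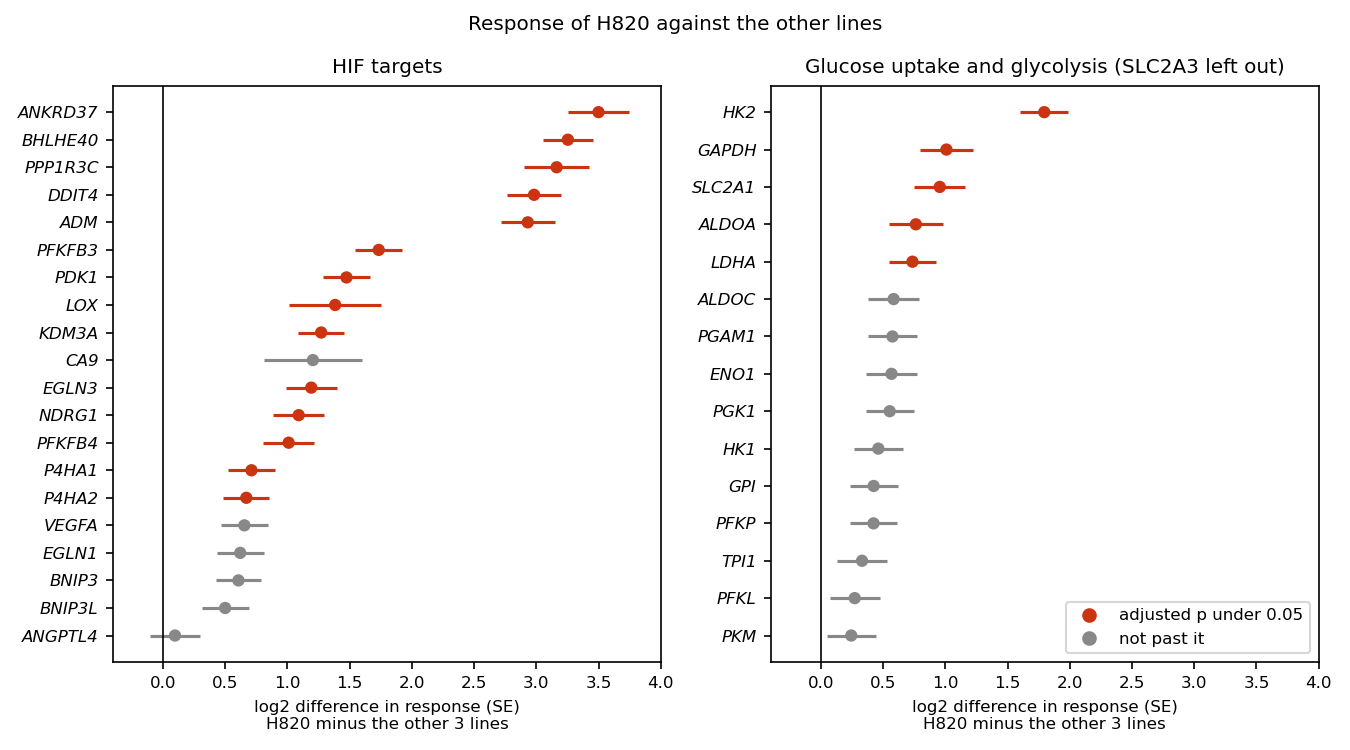
Difference between the log2 change of H820 and that shared by the other 3 lines, by member, with bars of 1 standard error and red markers for an edgeR adjusted p under 0.05; SLC2A3 is left out. The 5 HIF targets at the top lie between 2.93 and 3.499, the next HIF target lies at 1.73 and HK2 at 1.79, and no member lies below 0.

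Of the glycolysis genes, HK2 was called with the largest response of H820. It had 492 and 136 CPM in the PD-L1s and untreated libraries of H820, against 542 and 467 CPM in EBC1, 586 and 549 CPM in H1975, and 110.3 and 121 CPM in H23. The PD-L1s library of H820 lay at the level of EBC1 and H1975, and the untreated one near that of H23. The difference was 1.79 ± 0.19 (edgeR adjusted p = 2.62e-07). GAPDH (1.01, edgeR adjusted p = 0.00362), SLC2A1 (0.96, 0.0052), ALDOA (0.76, 0.048) and LDHA (0.74, 0.0263) were also called. ALDOA, LDHA, SLC2A1 and GAPDH lost the call when the H1975 pair was left out.

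The other 11 glycolysis genes had differences above 0 that did not pass. SLC2A3 could not be judged, at 3 counts and 0 counts in H820. PKM, the pyruvate kinase, had the smallest difference, at 0.24 ± 0.20, with 902 and 753 CPM in the PD-L1s and untreated libraries of H820. PFKL had 0.27 and TPI1 0.33, and the remaining 7 ran from 0.42 for PFKP to 0.58 for ALDOC. The ratio in H820 was above 1 for 20 of 20 HIF targets and 16 of 16 glycolysis genes, against 64.1% of all genes. In EBC1 it was above 1 for 18 and 15, against 69.7% of all genes. In H1975 it was above 1 for 12 and 7, against 48.5%, and in H23 for 6 and 4, against 46.1%. In H820 the counting interval lay wholly above 1 for 20 HIF targets and 15 glycolysis genes and wholly below 1 for 0. EBC1 had 14 HIF targets and 14 glycolysis genes above and 1 HIF target below. H1975 had 8 HIF targets and 3 glycolysis genes above, with 5 and 8 below. H23 had 1 of each above, with 6 HIF targets and 10 glycolysis genes below. The share of all genes with such intervals was not computed, so these counts have no background. In EBC1 the median log2 ratio over all genes with at least 50 counts was itself 0.13.

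Relative to the range of the other 6 libraries, the untreated H820 library lay below for 7 of 20 HIF targets and 7 of 16 glycolysis genes, and above for 0 of either. Of all genes with at least 50 counts in H820, 22% lay below and 24.6% above. The PD-L1s library of H820 lay above the other 6 for 7 HIF targets and 1 glycolysis gene and below for 2 and 4, against 27.7% above and 16.7% below over all genes. Within the range of the other 6 lay 13 HIF targets and 9 glycolysis genes in the untreated library and 11 and 11 in the PD-L1s one. By the shares above, most of all genes also lay within it, so this is not particular to the members.

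Several other measures differed between the H820 libraries in the same pair. The 20 genes of the G2/M phase had a median log2 ratio of 1.81 in H820, against -0.05 to 0.11 in the other lines, and summed to 1268 CPM with PD-L1s and 316 CPM untreated. In H820 all 20 were called higher in the same test. Mitochondrial transcripts took 2.48% of counts in the PD-L1s library and 4.07% in the untreated one. Erythroid markers summed to 0.836 CPM and 19.8 CPM, with 3 of 6 at 0 in both libraries. Immediate early genes had a median ratio of 0.62 in H820, against 0.19 to 0.48 in the others, with FOS at 157 and 14.6 CPM. The part of these in the difference of the members was not tested.

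The related lists showed which other genes differed in H820. Of all genes, 2.63% were called higher and 0.368% lower in this test, against which calls of 1 or 2 genes in a list say little. Of the 37 other HIF targets tested, 16 were called higher in the response of H820 and 0 lower, led by STC1 (1.62 on the log2 scale, edgeR adjusted p = 1.52e-05), the lipid droplet gene HILPDA (1.35, 3.36e-05) and the oxidase ERO1A (1.10, 0.000669). Of 18 genes of the HIF machinery, 2 were called higher, the transcriptional inhibitor CITED2 (1.34, edgeR adjusted p = 3.43e-05) and HIF1A itself (0.66, edgeR adjusted p = 0.0397). EPAS1, ARNT, VHL, EGLN2 and HIF1AN did not pass. Of 22 glycogen genes 3 were called higher, led by PPP1R3B at 1.11, and ENO2 was the only call among 20 other genes of glycolysis and lactate (0.86, edgeR adjusted p = 0.0106). Of 29 genes of pyruvate use and the citric acid cycle, PDK4, another inhibitor kinase of pyruvate dehydrogenase, was called lower (-2.99, edgeR adjusted p = 3.32e-07) and SUCLG2 higher (0.86). PDK4 had 1.95 CPM in the PD-L1s library of H820 and 13.9 CPM in the untreated one. Of 8 genes of the pentose phosphate pathway 0 were called by edgeR, and 1 had an unadjusted p under 0.05.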

How the data were processed

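RNA of 8 libraries was measured, 1 PD-L1s and 1 untreated library from each of 4 lines. The authors deposited raw counts for each gene. The submitters' processing notes name STAR 2.7.3a and build GRCh37 (hg19). Per the file headers, featureCounts 2.0.0 counted read pairs over exons of GENCODE release 28, lifted to GRCh37, with the reverse strand setting. Both ends had to align, at mapping quality 1 or more. A pair overlapping several genes on a strand was counted for each. The exonic length that the files also hold, an other kind of value deposited by the authors, gave FPKM.

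The counts were tested with edgeR 4.0.16 (quasi-likelihood test, TMM scaling, R 4.3.3) after filterByExpr with a minimum count of 10 by line, which kept 24185 genes. All adjusted p are Benjamini-Hochberg values over these genes, called under 0.05. The model held line and treatment. Each line was set against the mean of the other 3, and its response was tested as an interaction. The line pairs the libraries by design, so it was kept as a block. Ratios within a line are on log2 CPM with a prior count of 5, and their 95% intervals are exact binomial ones that cover counting error only. The floor of a count of 0 is taken as 3 counts. Alternatives were DESeq2 1.42.0 size factors and test, limma 3.58.1 with voom, library size only, other filters, no block, and leaving out libraries or pairs. The script was tested on simulated data.

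The members and lists were chosen with earlier results of these data known. Named in each comparison were members past the threshold, up to 10 a direction by size, and for ratios the largest. From the related lists, fixed regulators and up to 3 genes by smallest p were named. Promoter windows are RefSeq's (GRCh38.p14) and were matched by symbol.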

Additional observations from a re-analysis of the deposited data

Results flagged for a closer look

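In 6 members, the log2 ratio of PD-L1s over untreated in H820 stood further from the other 3 lines than Dixon's test allows for 4 values. The ratios in H820 were 3.49 for ANKRD37, 3.34 for PPP1R3C, 3.29 for BHLHE40, 3.04 for ADM, 1.70 for PFKFB3 and 1.23 for KDM3A. The other lines lay between -0.14 and 0.30 for these genes. Among levels over the 4 lines of a condition, the same test marked 6 values. ANKRD37 stood high in untreated EBC1 (252 CPM). PFKFB4 stood low in PD-L1s H23 (52.5 CPM), and EGLN3 (1.08 CPM) and NDRG1 (54.0 CPM) stood low in untreated H23. GPI (1359 CPM) and TPI1 (1865 CPM) stood high in PD-L1s EBC1. This makes 12 of 108 groups tested, and groups of the same library are not independent. Chance marks about 1 in 20 only for samples from a normal distribution, which levels of different lines need not follow. The rate over all genes was not computed, so no excess over chance can be read from this.

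In 19 members the response of H820 differed from that of the other lines by the interaction test. The log2 differences, H820 minus the others, were 3.499 for ANKRD37, 3.25 for BHLHE40, 3.16 for PPP1R3C, 2.98 for DDIT4 and 2.93 for ADM. They were 1.73 for PFKFB3, 1.47 for PDK1, 1.38 for LOX, 1.27 for KDM3A, 1.19 for EGLN3, 1.09 for NDRG1, 1.01 for PFKFB4, 0.71 for P4HA1 and 0.67 for P4HA2. Among glycolysis genes they were 1.79 for HK2, 1.01 for GAPDH, 0.96 for SLC2A1, 0.76 for ALDOA and 0.74 for LDHA. H820 gives a single pair with uneven depth, so PD-L1s and the library cannot be told apart.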

How the results depend on the processing

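The line comparisons kept their counts within 1.5 times under each alternative run. The shares of all genes called in these runs are not given here. Leaving out 1 library gave 26 to 34 members for H23, 28 to 35 for EBC1, 21 to 30 for H820 and 17 to 33 for H1975. Lines pair the libraries by design, and without the replicate block for treatment 31, 31, 24 and 24 members were called in the same order of lines, and 0 for PD-L1s against untreated. Without the PD-L1s library of H820, replicate 3, the H820 differences of PPP1R3C and PFKFB3 turned to -0.59 and -0.35, and without its untreated library they were 2.59 and 1.40. Without the filter on low counts, 5 members were called for PD-L1s against untreated, and the cause was not tested.

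Leaving out 1 pair gave 11 to 31 members for the response of H820, 11 without H1975 (replicate 4) and 31 without EBC1 (replicate 2). It gave 0 to 4 members for the response of H23, 0 to 1 for EBC1 and 0 to 2 for H1975. Without H1975, ANKRD37, ADM, BHLHE40 and DDIT4 were called lower in H23. Without H23, BHLHE40 and DDIT4 were called lower in H1975. Both fits set the line against a pair of lines that includes H820. The shares of all genes called in fits without a pair are not given here. Without H820, DDIT4 was called higher in EBC1.

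Scaling by library size only turned the median log2 ratio of HIF targets in H23 to 0.0070, and gave -0.059 for glycolysis genes there. In EBC1 it gave 0.0090 for HIF targets and 0.138 for glycolysis genes, and DESeq2 size factors gave 0.045 and 0.174. In H820 library size only gave 0.93 and 0.41. It shifted the median of all genes by -0.23 in H820 and -0.12 in EBC1. Relative to that median the HIF targets of H820 stood at 1.02 with library size only and at 1.03 with TMM. Relative to the median of all genes in their own line, those of H23 stood at -0.038 with either scaling. Those of EBC1 stood at 0.0029 with library size only and at 0.0051 with TMM.

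Depth limits the untreated H820 and EBC1 libraries most, where SLC2A3, CA9 in EBC1 and LOX in H820 rest on few counts. H820 gives 1 pair, so its values carry no replicate check.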
